A study of Homo sapiens with 24 samples.

Results

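The vacuolar proton pump (V-ATPase) was followed through 10 of its subunit genes, taken from a list of names, with no threshold on a measured value in the rule: ATP6V0A1, ATP6V0C, ATP6V0D1, ATP6V0D2 and ATP6V0E1 of the membrane sector V0, and ATP6V1A, ATP6V1B2, ATP6V1C1, ATP6V1D and ATP6V1H of the cytosolic sector V1. The members are 10 of 34496 genes listed in at least 1 of the 6 expression tables, and another 15 subunit and accessory genes were kept as a comparison list. Members and lists were chosen with earlier results of these data known, so their counts are not those of a blind choice. Polyadenylated RNA had been sequenced in 24 libraries of human glioma cells: U87 MG and LN229, which are established glioblastoma cell lines, with U87-R and LN229-R, derived from them as temozolomide-resistant cells. Each line was kept for 96 h with 50 µM STM2457 or with the DMSO solvent alone, and each of the 8 groups has 3 libraries. STM2457 inhibits METTL3, the enzyme that writes N6-methyladenosine on mRNA, and temozolomide is a DNA-alkylating drug. The medium of U87-R and LN229-R held 50 µM temozolomide in both arms and that of U87 MG and LN229 held none, so resistance and the drug in the medium cannot be told apart. The U87 and LN229 families were grown in different media and made into libraries with different kits (TruSeq Stranded and Watchmaker), so cell background, medium and kit cannot be told apart either. The labels do not say whether replicates were separate cultures, and the p-values may then measure technical spread.

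The V-ATPase hydrolyses ATP in its V1 sector and uses the rotation of a central rotor to push protons through a ring of proteolipids in its V0 sector. It acidifies lysosomes, endosomes and secretory vesicles, and in glioma cells as elsewhere the acid lumen is needed for lysosomal enzymes. Its lysosomal form is also a platform for the Ragulator and Rag GTPases that report amino acids to mTORC1. Many genes of lysosomal acidification carry the E-box CACGTG, often as TCACGTG, which is bound by the MiT/TFE factors TFEB, TFE3 and MITF.

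The promoters of 4 members could be matched by symbol in RefSeq (GRCh38.p14), those of ATP6V0A1, ATP6V0C, ATP6V0D1 and ATP6V1D. The letters searched on both strands in the 250 bases before each start were CACGTG, the longer TCACGTG that contains it, and the palindrome known as the CLEAR element, which contains both. TCACGTG occurred in ATP6V0D1, which encodes the d subunit that joins rotor and ring, and not in the windows of the other 3. In ATP6V0D1 it lay 54 to 60 bases before the start, and its reverse complement overlapped it at 53 to 59. In the comparison list it occurred in 3 of 14 genes with a promoter, ATP6V0B, ATP6V0E2 and ATP6V1G1, and ATP6V1G1 held the CLEAR palindrome. Of all 27305 genes in the table, 7.73% held CACGTG, 4.02% held TCACGTG and 0.374% held the CLEAR palindrome in at least 1 promoter, and of its 35116 promoters the shares were 6.34%, 3.31% and 0.308%. The sequences of 3 subunit promoters with TCACGTG are shown beside that of ATP6V0A1, which has none, with TCACGTG on either strand in capitals.
ATP6V0D1, chr16:67481158-67481407, minus strand: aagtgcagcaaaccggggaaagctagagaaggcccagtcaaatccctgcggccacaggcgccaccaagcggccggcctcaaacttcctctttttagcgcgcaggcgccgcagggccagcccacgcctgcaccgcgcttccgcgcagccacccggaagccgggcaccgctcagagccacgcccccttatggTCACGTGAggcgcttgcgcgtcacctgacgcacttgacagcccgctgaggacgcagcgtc
ATP6V1G1, chr9:114587519-114587768, plus strand: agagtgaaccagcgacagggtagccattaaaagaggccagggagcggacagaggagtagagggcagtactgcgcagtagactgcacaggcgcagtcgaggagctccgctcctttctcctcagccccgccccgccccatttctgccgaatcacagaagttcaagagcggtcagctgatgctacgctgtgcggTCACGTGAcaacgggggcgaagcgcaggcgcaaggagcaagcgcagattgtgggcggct
ATP6V0B, chr1:43974710-43974959, plus strand: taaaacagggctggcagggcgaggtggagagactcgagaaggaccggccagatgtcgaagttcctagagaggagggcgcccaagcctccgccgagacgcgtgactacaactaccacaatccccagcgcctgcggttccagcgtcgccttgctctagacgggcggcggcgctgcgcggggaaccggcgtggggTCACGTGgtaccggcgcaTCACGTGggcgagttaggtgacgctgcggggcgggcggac
ATP6V0A1, chr17:42458628-42458877, plus strand: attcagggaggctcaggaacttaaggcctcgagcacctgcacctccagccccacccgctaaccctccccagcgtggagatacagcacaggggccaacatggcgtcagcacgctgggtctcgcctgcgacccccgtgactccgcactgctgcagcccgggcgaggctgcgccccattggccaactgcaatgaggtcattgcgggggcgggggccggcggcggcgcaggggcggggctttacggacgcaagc
A match of letters is a description of the sequence. ATP6V0C and ATP6V1D, whose windows held no TCACGTG either, are not printed. Binding was not measured in these libraries, and a link of the letters to the changes in expression was not tested.

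Values are normalized counts as the authors deposited them, in 6 tables of 6 libraries, each scaled on its own. Their sums per library ran from 21232924 to 28716587. Every comparison was made within a table, on log2 of the value plus 1, for genes whose mean reached 10, and a gene was said to rise or fall when limma's adjusted p was under 0.05. ATP6V0D2 was listed in the 3 tables of the U87 family and not in those of the LN229 family, so 10 members were tested in U87 cells and 9 in LN229 cells. METTL3 mRNA did not pass in any line, with log2 changes under STM2457 of 0.08, 0.15, -0.04 and -0.16 in U87 MG and U87-R, then LN229 and LN229-R. In the STM2457 tables the markers VIM and CD44 had means of at least 37809 and 13662 normalized counts in every group, and GFAP had at most 82.7. SOX2 and S100B separated the families, with 1031 and 13844 in LN229 DMSO and 0.400 and 2.11 in U87 MG DMSO. In LN229-R, means in DMSO and STM2457 were 24409 and 6290 for S100B, 913.3 and 276.9 for OLIG2, 12433 and 7677 for NES, 70544 and 42142 for VIM, and 13662 and 39144 for CD44. In LN229 they were 13844 and 3553 for S100B, 598.9 and 233.7 for OLIG2, 11397 and 8289.7 for NES, 64345 and 37809 for VIM, and 13682 and 32284 for CD44. The part of these markers in the members' changes was not tested. In the same STM2457 tables CD14, PTPRC, DCSTAMP, OCSTAMP, CALCR, RBFOX3 and EPCAM, markers of leukocytes, osteoclasts, neurons and epithelium, had means of at most 13.9 where listed. The osteoclast markers ACP5 and CTSK were higher, with lowest means of 107.7 (LN229-R DMSO) and 1786 (LN229 DMSO), and rose under STM2457 in every line. Their highest means were 2783 (LN229-R STM2457) and 10472 (U87 MG STM2457). CSF1R reached 219.9 in U87 MG, SYP 96.1, PECAM1 40.7 and CDH5 19.6, and their part in the results was not tested either. In such bulk RNA, more cells with a transcript and more transcript per cell cannot be told apart.

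The DMSO libraries of the LN229 family carry opposite names in different tables. Each DMSO library appears once in a table of resistant against parental cells and once in an STM2457 table. All 6 columns of the LN229 resistance table were closest to the library of the same number under the other line's name (SD of the log2 ratio across genes 0.058 to 0.062, against 0.341 to 0.400 for the like-named library). All 6 columns of the U87 resistance table were closest to their like-named library. MGMT, which encodes a DNA repair enzyme that removes temozolomide adducts, shows the same conflict. The LN229 resistance table lists it at 0 under the label LN229-R and at 199 ± 8.91 under LN229, whereas the STM2457 table of LN229-R has 196 ± 8.38 in DMSO (normalized counts, SD, n = 3). The U87 resistance table has 0.726 ± 1.26 for U87 MG against 1043 ± 309 for the resistant cells (SD, n = 3). Exchanging the names in the LN229 resistance table reverses the sign of every LN229 resistance value. Exchanging them in the STM2457 tables leaves each drug effect as it is and moves it to the other LN229 line, so LN229 and LN229-R below mean the libraries so labelled. Ribosomal protein genes took 4.24% of the counts in 1 library labelled LN229-R DMSO (replicate 2 of its STM2457 table) and 2.57% and 2.73% in the others of its group. In the LN229 resistance table the same library is labelled LN229 DMSO replicate 2.

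The comparison of STM2457 with DMSO asks how the pump's mRNAs differ after 96 h with the drug. N6-methyladenosine was not measured in these libraries, so effects by way of METTL3 and other effects of the drug cannot be told apart. Rises were called in 2 of 10 members in U87 MG, 3 of 10 in U87-R, 7 of 9 in LN229 and 4 of 9 in LN229-R, and no member fell in any line. Among all genes tested, 7.86% rose in U87 MG, 8.46% in U87-R, 26.2% in LN229 and 21.5% in LN229-R, and 5.72%, 6.2%, 23.6% and 17.1% fell. ATP6V0E1 rose in 4 lines, ATP6V0D1 in 3, and ATP6V0D2, ATP6V1B2 and ATP6V1C1 in 2. ATP6V0C, ATP6V1D and ATP6V1H rose in LN229, and ATP6V0A1 and ATP6V1A passed in no line. The median log2 change of the members was 0.21, 0.25, 0.40 and 0.34 in U87 MG and U87-R, then LN229 and LN229-R, where the median of all genes was -0.012, -0.0050, -0.0030 and -0.022. All 3 STM2457 libraries lay above all 3 DMSO libraries for 4, 5, 8 and 4 members in these lines, as they did for 18.3%, 18.4%, 30.7% and 27.5% of all genes.

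**Figure D1:**
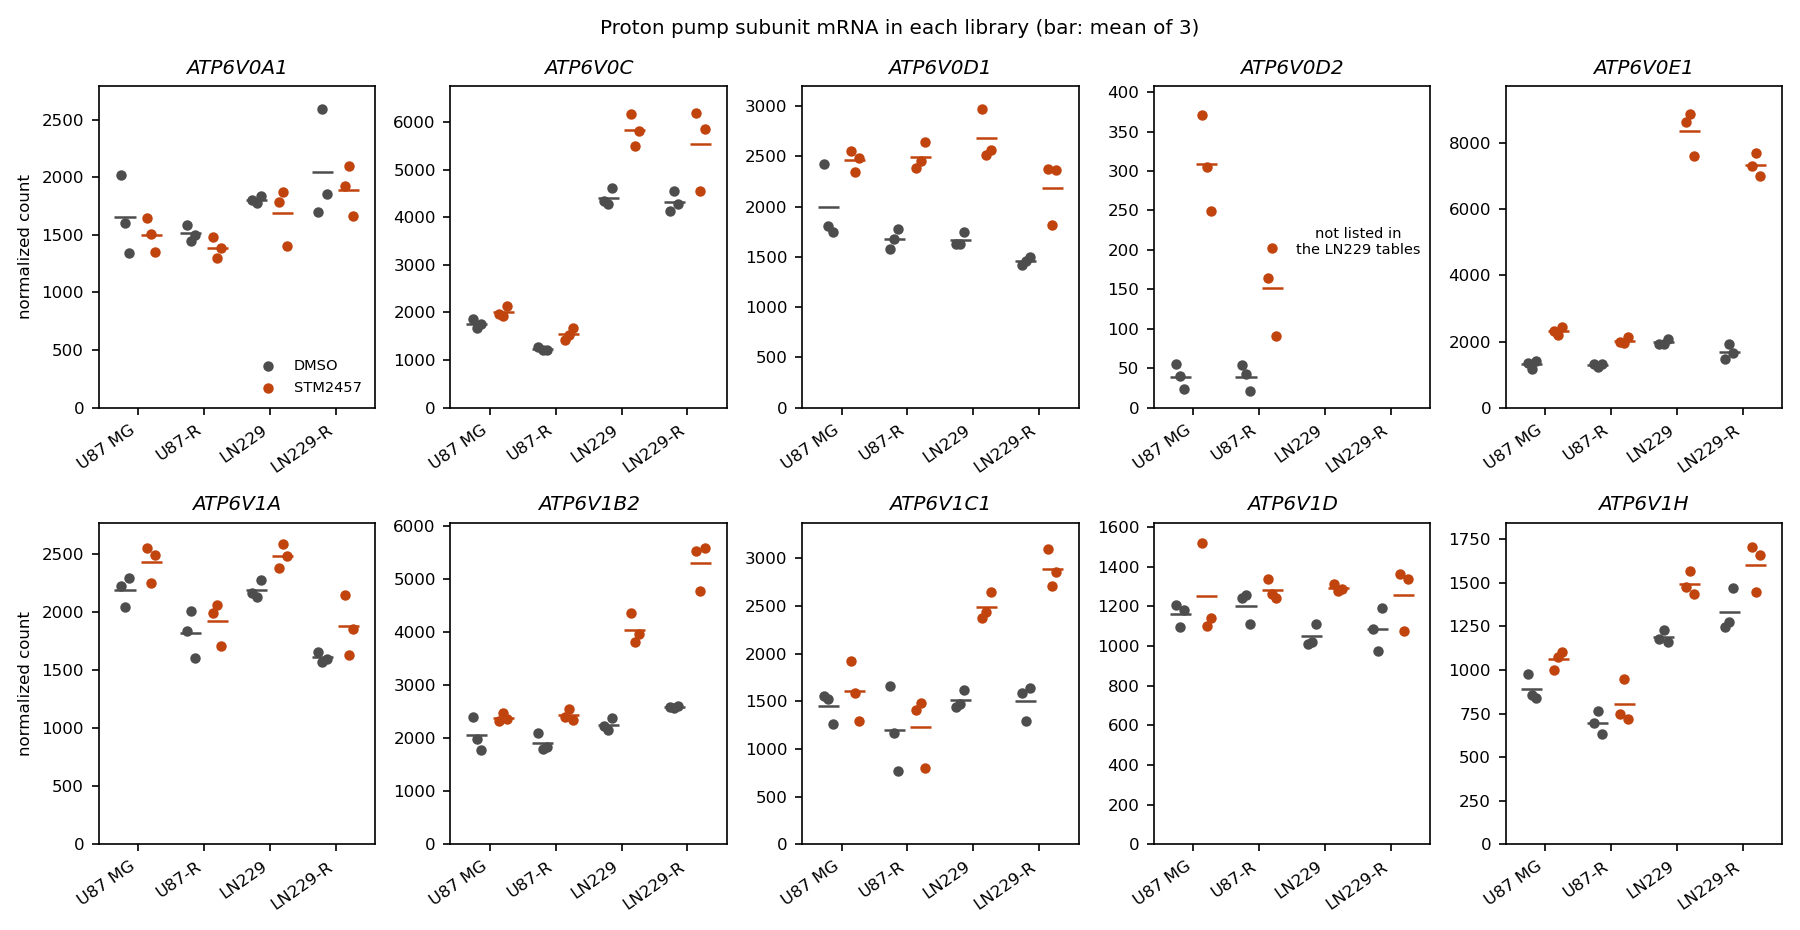
Normalized count of each of the 10 subunit mRNAs (vertical axes, from 0) in every library of the 4 STM2457 tables, by cell line (horizontal axes), with DMSO in grey, STM2457 in orange and a bar at the mean of 3. ATP6V0E1 shows separated groups in every line, with STM2457 libraries of the LN229 family at 7007 and above, and ATP6V0A1 overlaps in all 4.

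ATP6V0E1, on chromosome 5 from 172983771 to 173035445 (GRCh38), encodes the small membrane subunit e of V0. In LN229 it had 1921, 1941 and 2067 normalized counts in DMSO and 8645, 8881 and 7622 in STM2457. In LN229-R it had 1459, 1937 and 1638 in DMSO and 7316, 7712 and 7007 in STM2457. The groups lay far apart in both lines, with log2 changes of 2.08 (SE 0.085, adjusted p = 5.65e-06) and 2.14 (SE 0.13, adjusted p = 4.12e-05). In the U87 family the rise was smaller. U87 MG had 1360, 1165 and 1397 in DMSO and 2334, 2184 and 2453 in STM2457, a log2 change of 0.83 (SE 0.11, adjusted p = 0.00267). U87-R had 1311, 1220 and 1322 in DMSO and 1982, 1967 and 2126 in STM2457, a log2 change of 0.66 (SE 0.098, adjusted p = 0.00390). Again no DMSO library reached any STM2457 library. The annotation names 4 pseudogenes of ATP6V0E1. Whether reads were shared with these copies was not examined, so its level stays uncertain.

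ATP6V0D2, on chromosome 8, encodes the isoform of subunit d known from osteoclasts, kidney and macrophages. Its level was low in the DMSO libraries of U87 MG, at 54.7, 39.6 and 23.9 normalized counts, and reached 370.8, 304.9 and 249.1 in STM2457. In U87-R it had 54.1, 42.5 and 20.8 in DMSO and 163.9, 201.8 and 90.4 in STM2457. The groups did not overlap in either line, although the lowest treated U87-R library came nearer to the controls. In U87-R the log2 change was 1.96 (SE 0.41, adjusted p = 0.0149), and ATP6V0D2 ranked 28th of 16407 genes from the highest change in U87 MG and 128th of 16185 in U87-R. The call in U87-R was lost without STM2457 replicate 1 (adjusted p = 0.0530) or replicate 2 (adjusted p = 0.0721), and without a variance trend (adjusted p = 0.05004). The change in U87-R minus that in U87 MG was -1.04 (95% confidence interval -2.24 to 0.17, adjusted p = 0.999). An antisense gene shares 502 of its 3010 exonic bases.

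The other d subunit, ATP6V0D1 (chromosome 16, 67438019 to 67481157), is the widely expressed form. In U87-R it had 1579, 1676 and 1773 normalized counts in DMSO and 2381, 2455 and 2642 in STM2457. It had 1631, 1625 and 1742 in DMSO and 2968, 2507 and 2563 in STM2457 in LN229. The LN229-R values were 1417, 1455 and 1500.0 in DMSO and 2368, 1814 and 2362 in STM2457. In each of these lines the treated libraries were all higher, with log2 changes of 0.57 (SE 0.099, adjusted p = 0.00690), 0.68 (SE 0.089, adjusted p = 0.000504) and 0.57 (SE 0.13, adjusted p = 0.0100). In U87 MG the value was 0.32 (SE 0.13, adjusted p = 0.148). There DMSO replicate 1, at 2426, lay among the treated libraries, and without it the change was 0.47 (adjusted p = 0.0291).

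ATP6V0C (chromosome 16, 2513726 to 2520218) encodes the proteolipid that forms most of the proton-carrying ring. In LN229 it had 4335, 4282 and 4609 normalized counts in DMSO and 6166, 5502 and 5815 in STM2457, a rise of 0.40 on the log2 scale (SE 0.079, adjusted p = 0.00362). In LN229-R the value was 0.34 (adjusted p = 0.0785). STM2457 replicate 2 of that line, at 4550, lay within the control range, and without it the change was 0.48 (adjusted p = 0.00988). In U87 MG and U87-R the changes were 0.19 and 0.31 and were not called (adjusted p = 0.229 and 0.0830). ATP6V0C shares 862 of 1498 exonic bases with another annotated gene and has 4 named pseudogenes, so its level is uncertain. ATP6V0A1 (chromosome 17, 42458878 to 42522579), which encodes an isoform of subunit a, the stationary channel part past which the ring turns, had changes of -0.13, -0.12, -0.11 and -0.10 in U87 MG and U87-R, then LN229 and LN229-R. Its adjusted p ran from 0.444 to 0.679, and treated and control libraries overlapped in every line.

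Among the V1 members, ATP6V1B2 on chromosome 8 encodes the widely expressed B subunit, which alternates with the catalytic A subunit in the head. In LN229 it had 2222, 2145 and 2384 normalized counts in DMSO and 4346, 3810 and 3967 in STM2457. In LN229-R it had 2576, 2559 and 2607 in DMSO and 5521, 4776 and 5580 in STM2457. Both pairs of groups were widely separated, with log2 changes of 0.84 (SE 0.083, adjusted p = 0.000132) and 1.03 (SE 0.10, adjusted p = 0.000284). The values in U87 MG and U87-R were 0.23 (adjusted p = 0.246) and 0.35 (adjusted p = 0.0531), with separated groups in U87-R and overlapping ones in U87 MG.

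ATP6V1C1, also on chromosome 8, encodes the C subunit that links the stator to V0 and is released when the sectors separate. Its normalized counts were 1438, 1476 and 1622 in DMSO and 2377, 2437 and 2643 in STM2457 in LN229. In LN229-R they were 1587, 1297 and 1634 in DMSO and 3098, 2707 and 2852 in STM2457. No treated library fell to the control range, and the log2 changes were 0.72 (SE 0.084, adjusted p = 0.000291) and 0.94 (SE 0.12, adjusted p = 0.000905). In U87-R it had 1656, 1169 and 770.9 in DMSO and 1412, 1479 and 796.2 in STM2457. These libraries spread widely in both arms, and the change of 0.05 had a 95% confidence interval from -0.63 to 0.73. In U87 MG the change was 0.14 (SE 0.16, adjusted p = 0.603).

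The remaining V1 members had smaller changes. ATP6V1D (chromosome 14, 67337872 to 67359804), a part of the rotor, had 1011, 1021 and 1112 normalized counts in DMSO and 1311, 1279 and 1286 in STM2457 in LN229, a rise of 0.30 (SE 0.079, adjusted p = 0.0133). Without LN229 DMSO replicate 1 its adjusted p was 0.0518. ATP6V1H on chromosome 8, the regulatory subunit that holds free V1 inactive, had 1181, 1232 and 1161 in DMSO and 1478, 1570 and 1438 in STM2457 in LN229, a rise of 0.33 (SE 0.078, adjusted p = 0.00877). In LN229-R the changes of ATP6V1D and ATP6V1H were 0.21 and 0.27 and were not called (adjusted p = 0.243 and 0.105). ATP6V1A (chromosome 3, 113747035 to 113812056), the catalytic subunit, had changes of 0.15, 0.08, 0.18 and 0.21 in U87 MG and U87-R, then LN229 and LN229-R, with its lowest adjusted p, 0.0728, in LN229. In LN229 all 3 treated libraries (2381, 2586 and 2479) nevertheless lay above all 3 controls (2165, 2131 and 2272).

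By sector, 2 of 5 V0 members and 0 of 5 V1 members rose in U87 MG, and 3 of 5 and 0 of 5 in U87-R. In LN229 the counts were 3 of 4 and 4 of 5, and in LN229-R 2 of 4 and 2 of 5. Of all genes tested, 7.86% rose in U87 MG, 8.46% in U87-R, 26.2% in LN229 and 21.5% in LN229-R. A difference between the sectors was not tested. The 4 members called in LN229-R, ATP6V0D1, ATP6V0E1, ATP6V1B2 and ATP6V1C1, were all among the 7 called in LN229. In U87-R, same-numbered libraries correlated weakly (0.174, 0.114 and 0.298). With the replicate number as a block 5 members rose, ATP6V0C (adjusted p = 0.0300) and ATP6V1B2 (adjusted p = 0.0153) being added. The share of 8.46% belongs to the main fit, and over the alternative fits 884 to 4796 of all genes were called in either direction.

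**Figure D2:**
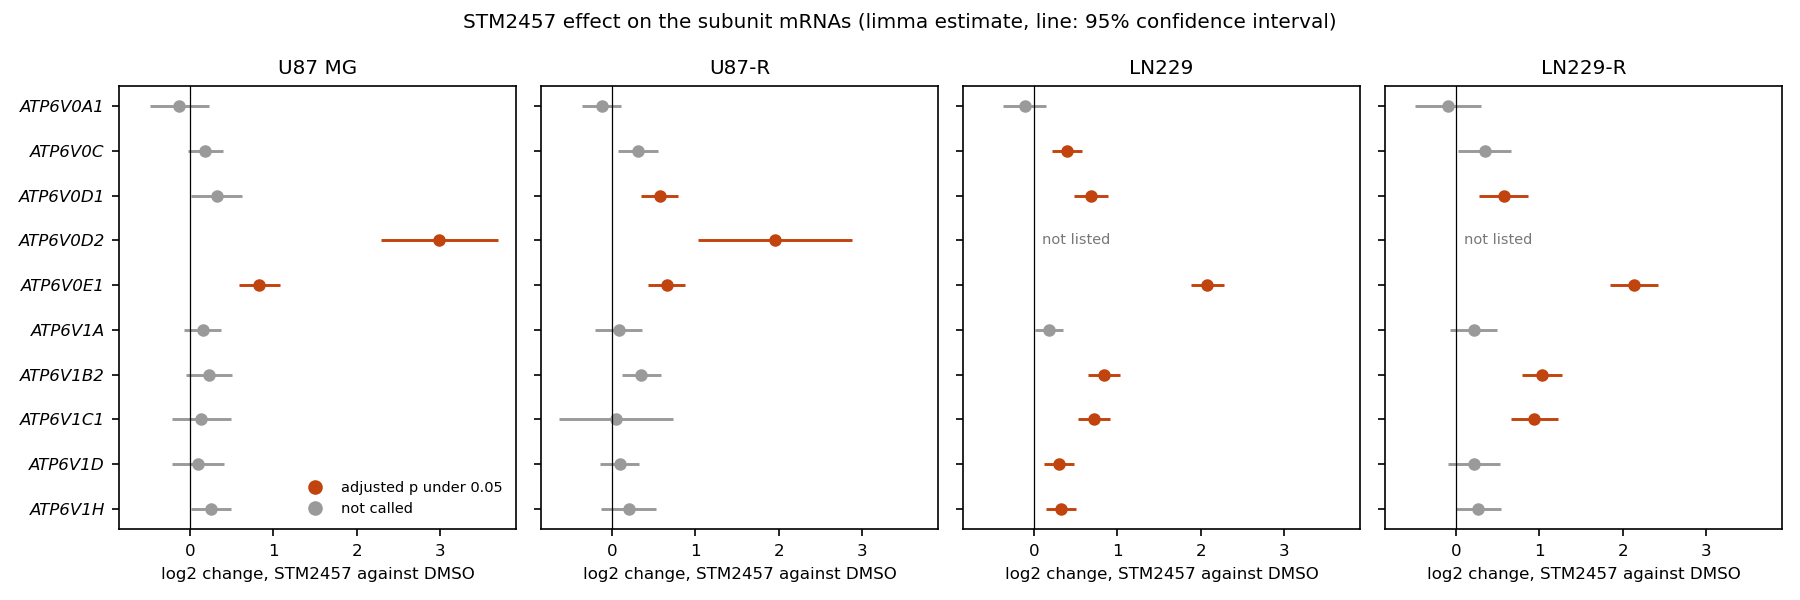
Log2 change of each subunit mRNA under STM2457 (horizontal axes) in the 4 lines, as the limma estimate with its 95% confidence interval, in orange where the adjusted p was under 0.05. ATP6V0E1 stands at 2.08 and 2.14 in the LN229 family against 0.83 and 0.66 in the U87 family, and ATP6V0A1 lies between -0.13 and -0.10 in all 4.

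Whether the drug effect differed between lines was tested on the difference itself. Between U87-R and U87 MG no difference of a member was called (0 of 10, 0 at an unadjusted p under 0.05, and 0% of all genes in limma). Some intervals were wide, as for ATP6V1C1 (95% confidence interval from -0.91 to 0.74), so differences may go uncalled. Between LN229-R and LN229 the count was 0 of 9, with 0 at an unadjusted p under 0.05 and 0.00606% of all genes. Between families, 3 of 9 members had larger changes in LN229 than in U87 MG, where 11.6% of all genes had a higher change. ATP6V0E1 differed by 1.25 (SE 0.13, adjusted p = 6.27e-05) and ATP6V1B2 by 0.61 (SE 0.15, adjusted p = 0.0131). ATP6V1C1 differed by 0.58 (SE 0.19, adjusted p = 0.0457), a call that was lost without any 1 of 10 of the 12 libraries (adjusted p from 0.0600 to 0.101). It was also lost with equal totals (0.49, adjusted p = 0.108), equal upper quartiles (adjusted p = 0.0653), no filter (adjusted p = 0.0546) and no variance trend (adjusted p = 0.0754). It was kept without U87 MG DMSO replicate 3 and without U87 MG STM2457 replicate 1. Between LN229-R and U87-R, 2 of 9 members had larger changes in LN229-R, beside 9.5% of all genes. These were ATP6V0E1 with a difference of 1.48 (SE 0.15, adjusted p = 5.37e-05) and ATP6V1B2 with 0.68 (SE 0.14, adjusted p = 0.00599). ATP6V1C1 differed by 0.89 (SE 0.37, adjusted p = 0.131), by 1.17 without U87-R DMSO replicate 3 (adjusted p = 0.0328), and passed with the replicate block (adjusted p = 0.00379). For ATP6V0D1 the difference between LN229-R and U87-R was -0.0017, with a 95% confidence interval from -0.35 to 0.34.

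The comparison of resistant with parental cells in DMSO asks which mRNAs differ with acquired resistance. In the U87 family no member was called (0 of 10, 1 at an unadjusted p under 0.05 in limma), where 4.27% of all genes changed. ATP6V0C, the member with that unadjusted p, had 1289, 1237 and 1221 normalized counts in U87-R and 1662, 1492 and 1563 in U87 MG. All U87-R libraries were lower, with a change of -0.33 (SE 0.097, adjusted p = 0.106). ATP6V1C1 had the widest interval among the V1 members, a change of -0.35 from -0.90 to 0.20 at 95% confidence, and the other 8 members lay between -0.21 and 0.12.

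In the LN229 resistance table, 2 of 9 members were higher in the libraries labelled LN229-R, where 5.6% of all genes were higher and 3.65% lower, and no member was lower. ATP6V1A had 2431, 2385 and 2547 normalized counts in libraries labelled LN229-R and 1649, 1556 and 1586 in those labelled LN229. The groups stood apart, with a log2 change of 0.62 (SE 0.075, adjusted p = 0.00250). In the STM2457 tables, scaled separately, the order of the names was the opposite, with 2190 ± 73.6 in LN229 DMSO and 1608 ± 43.4 in LN229-R DMSO (SD, n = 3). ATP6V0D1 had 1826, 1813 and 1946 in libraries labelled LN229-R and 1426, 1458 and 1505 in those labelled LN229, a change of 0.35 (SE 0.077, adjusted p = 0.0301). That call was lost without any 1 of the 3 LN229-R libraries or of LN229 replicates 1 and 3 (adjusted p from 0.0755 to 0.150).

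ATP6V0E1 had 2187, 2202 and 2349 normalized counts in libraries labelled LN229-R and 1472, 1945 and 1648 in those labelled LN229. The groups did not overlap, and the change of 0.42 (SE 0.11) had an adjusted p of 0.0536. It was 0.0320 with equal totals and 0.0308 with the replicate number as a block. Same-numbered libraries of this comparison correlated weakly (0.134, 0.204 and 0.114). The high value of 1945 belongs to the library with the high ribosomal protein share, and the part of that share in the result was not tested. Without that library 4 members were called, ATP6V0C (adjusted p = 0.0396) and ATP6V0E1 (adjusted p = 0.00353) joining ATP6V0D1 and ATP6V1A. The same library had the highest ATP6V0A1 value, 2566 normalized counts against 1690 and 1837 in its group. The other 6 members lay between -0.04 and 0.20. Over the alternative fits, the number of all genes called in this comparison ran from 534 to 3262.

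**Figure D3:**
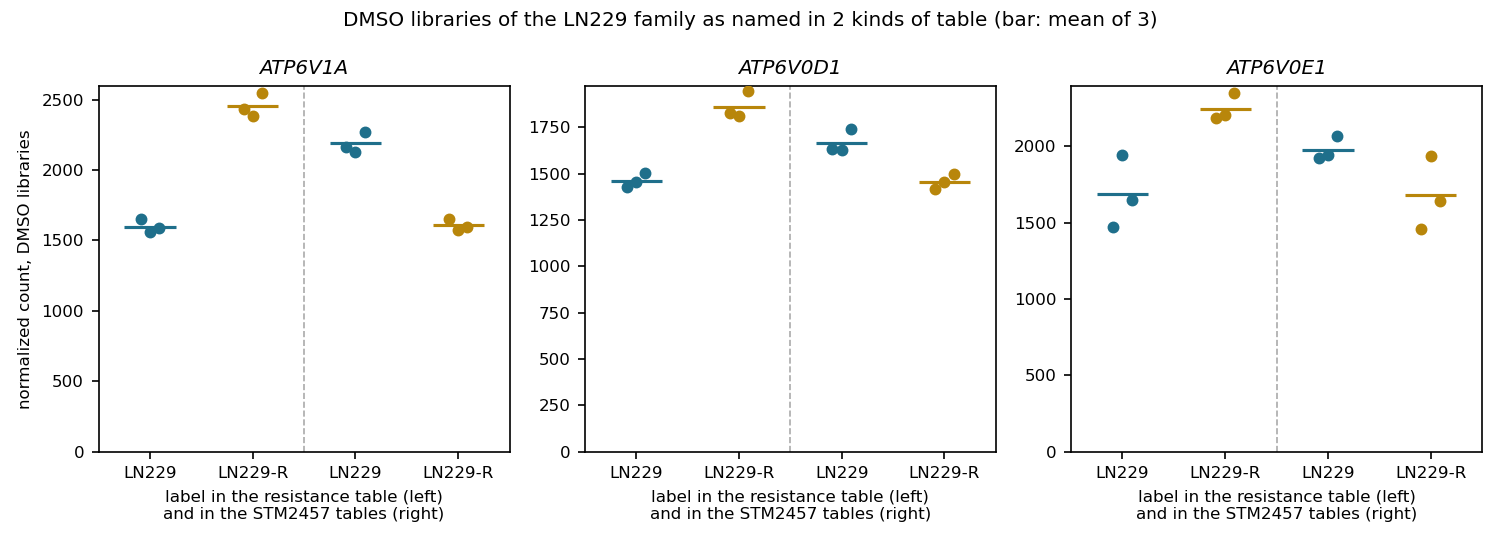
Normalized counts of ATP6V1A, ATP6V0D1 and ATP6V0E1 (vertical axes, from 0) in the DMSO libraries of the LN229 family, under their labels in the resistance table (left of the dashed line) and in the STM2457 tables (right), with a bar at the mean of 3. The group labelled LN229-R is the higher one on the left and the lower one on the right for all 3 genes.

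The comparison list of 15 further subunit and accessory genes was read beside the members. Under STM2457, 1 of 12 tested rose in U87 MG, 1 of 12 in U87-R, 8 of 13 in LN229 and 7 of 14 in LN229-R, and none fell. Of all genes, 7.86%, 8.46%, 26.2% and 21.5% rose in the same order of lines. The median changes of the list were -0.046, 0.031, 0.42 and 0.38. ATP6V1F, a rotor subunit, rose in all 4 lines, from 2456 to 3691 normalized counts in U87 MG (0.59, SE 0.10, adjusted p = 0.00743) and by 0.50, 0.94 and 0.98 in U87-R, LN229 and LN229-R. The stalk subunit ATP6V1E1 rose by 0.72 in LN229 and 0.81 in LN229-R, and the stator subunit ATP6V1G1 by 0.45 and 0.39. ATP6AP1, an accessory protein of assembly, rose by 0.56 and 0.60, and ATP6V0B, a proteolipid of the ring, by 0.42 and 0.31. None of them was called in U87 MG or U87-R. There the changes were 0.10 and 0.11 for ATP6V1E1 and 0.29 and 0.16 for ATP6V1G1. They were -0.16 and -0.13 for ATP6AP1 and -0.12 and -0.04 for ATP6V0B. All 7 genes called in LN229-R were among the 8 of LN229.

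Subunit a has several isoforms, which were read separately. ATP6V0A4, the isoform known from kidney intercalated cells, rose from 9.31 to 74.7 mean normalized counts in LN229 (2.85, SE 0.46, adjusted p = 0.00133) and from 15.8 to 158.8 in LN229-R (3.16, SE 0.54, adjusted p = 0.00298). In LN229 it passed the filter of 10 only through the STM2457 libraries, and the counts of rises in LN229 include it. TCIRG1, the isoform of osteoclasts and lysosomes, rose by 0.56 and 0.65 in these lines, and was not called in U87 MG and U87-R (-0.13 and 0.37). ATP6V0A2 had changes of -0.08 and -0.16 in LN229 and LN229-R and was not called, like ATP6V0A1. With members and comparison list together, 15 of 22 genes tested in LN229, 11 of 23 in LN229-R, 3 of 22 in U87 MG and 4 of 22 in U87-R rose. Of all genes, 26.2%, 21.5%, 7.86% and 8.46% rose in the same order of lines. In the resistance comparisons, ATP6V1G1 was called (0.33, higher in libraries labelled LN229-R, as were 5.6% of all genes) and no other gene of the comparison list was. In the LN229 resistance table CLCN5, an exchanger of endosomes, was lower in libraries labelled LN229-R (-0.67, adjusted p = 0.0194).

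**Figure D4:**
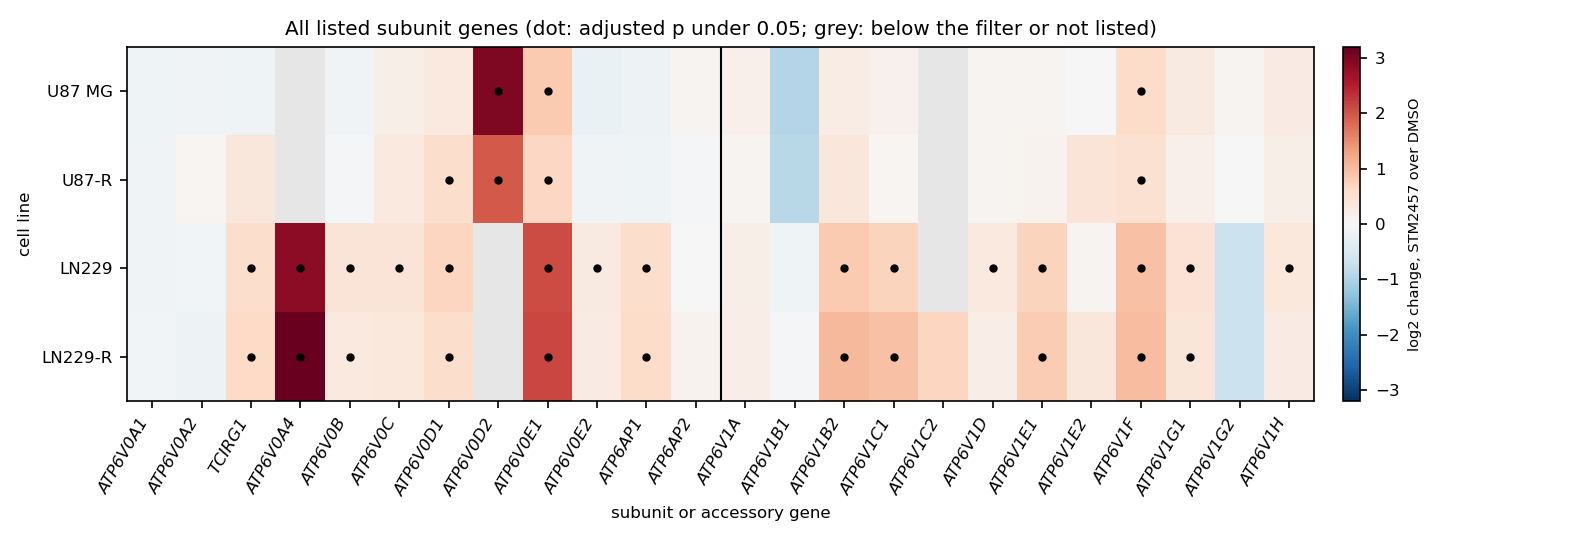
Log2 change under STM2457 (colour) of members and comparison list (horizontal axis, V0 and accessory genes left of the line, V1 genes right) in the 4 lines (vertical axis), with dots at an adjusted p under 0.05 and grey where a gene was below the filter or not listed (ATP6V1G3, tested in no line, is left out). Dots are on 15 genes in LN229 and 11 in LN229-R, against 3 in U87 MG and 4 in U87-R. Of all genes, 26.2%, 21.5%, 7.86% and 8.46% rose in the same order of lines.

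Of 9 assembly factors, 1 rose in U87 MG, 1 in U87-R, 4 in LN229 and 4 in LN229-R, and 2 fell in LN229. Beside them, 7.86%, 8.46%, 26.2% and 21.5% of all genes rose in these lines, and 23.6% fell in LN229. RNASEK, a small protein bound to V0, rose in every line, by 0.37, 0.43, 0.83 and 0.93 in U87 MG and U87-R, then LN229 and LN229-R. DMXL1, of the RAVE-like complex that reattaches V1 to V0, rose by 0.94 and 0.96 in LN229 and LN229-R. In U87 MG and U87-R it was not called (0.04 and -0.21). The assembly factor CCDC115 rose by 0.43 and 0.37 in LN229 and LN229-R, and TM9SF4, which binds V1, by 0.46 and 0.54. VMA21, a chaperone of V0 assembly in the endoplasmic reticulum, and ROGDI, a partner of DMXL1, fell in LN229, by 0.43 and 0.41 on the log2 scale. Of 4 TLDc proteins tested, a family that binds the pump, 0, 1, 2 and 3 rose in the same order of lines. MEAK7 rose in U87-R, LN229 and LN229-R, by 0.43, 0.44 and 0.70. NCOA7 rose by 0.53 in LN229 and 0.92 in LN229-R, and OXR1 by 0.40 in LN229-R.

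Among 16 genes of lysosomal ion transport and nutrient sensing, 4 rose in U87 MG, 5 in U87-R, 11 in LN229 and 11 in LN229-R, and 10 of these were shared by the last pair. Of all genes, 7.86%, 8.46%, 26.2% and 21.5% rose in the same order of lines. The median changes of the 16 genes were 0.11, 0.31, 0.45 and 0.50. RRAGD, a Rag GTPase, rose by 1.21, 1.57, 1.97 and 2.08 in U87 MG and U87-R, then LN229 and LN229-R. Its relatives RRAGC (0.86, 0.93, 1.37 and 1.39) and RRAGA (0.99, 0.64, 0.76 and 0.69), and the Ragulator subunit LAMTOR2 (0.64, 0.77, 0.79 and 0.73), also rose in all 4. CLCN7, the chloride and proton exchanger of lysosomes, rose in U87-R, LN229 and LN229-R (0.75, 1.25 and 1.42). In U87 MG its change of 0.53 was not called. Its partner OSTM1 rose in LN229 and LN229-R (0.63 and 0.96), as did the related exchanger CLCN6 (0.71 and 0.85). TMEM175, a lysosomal potassium and proton channel, fell in U87 MG, U87-R and LN229-R (-0.70, -0.72 and -0.63). In LN229 its change of -0.35 was not called. TCACGTG occurred in the promoters of 7 of 14 genes of this list with an entry. MITF rose in LN229 (1.06, SE 0.22, adjusted p = 0.00446) and LN229-R (1.33, SE 0.16, adjusted p = 0.000592). Its changes of 0.16 in U87 MG and 0.38 in U87-R were not called, and TFEB and TFE3 were not called in any line.

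How far the members moved together was described by correlation over the 24 libraries of the STM2457 tables, centred within each table, which share treatment as a source of variation. ATP6V1B2 had the highest correlation with the mean of the other members (r = 0.964) and ATP6V0A1 the lowest (r = -0.250). Outside the pump, the mean profile of 9 members was most like those of GNPDA1 (r = 0.979), PLEKHO2, TMEM60, TMEM255B and CLN3 among 12524 genes. ATP6V0D2 could be compared over the 12 U87 libraries, where PDP1 (r = 0.984), FNIP2 (r = 0.983), UTP25, RAP2B and PHLDA3 were most like it among 14243 genes.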

How the data were processed

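The deposited files are 6 tables of normalized counts, a signal that the authors scaled within each table of 6 libraries. Per the submitters' processing notes the genome build was GRCh38 and the tools included DESeq2, Salmon 1.4.0, STAR 2.7.11a and Trimmomatic 0.39. Gene-specific scaling prevented recovery of whole reads, so depth in reads is unknown and count tests were not used. Ensembl identifiers were matched to symbols. Log2(value + 1) was fitted with limma 3.58.1 (R 4.3.3, variance trend) for genes whose mean reached 10, and p-values were adjusted over all genes tested (Benjamini and Hochberg). Differences of drug effects were contrasts in a joint fit of 12 libraries. The steps were tested on simulated data. Like-numbered libraries correlated above 0.1 in all 3 pairs (lowest 0.114, 0.102 and 0.114) in the STM2457 comparisons of U87-R and LN229-R and in the LN229 resistance comparison, and the replicate block is given there where it changes a call.

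Members and lists were chosen with earlier results of these data known. All members were named, and from each list the called genes, at most 6 per comparison with the lowest adjusted p. For part of the named genes, values in lines where they were not called were given too. Likeness to ATP6V0D2 used 12 libraries in place of 24 because the LN229 tables did not list it. Alternatives were to drop the filter or raise it to 50, to add 0.5 or 5 instead of 1, to scale libraries to equal totals or to equal upper quartiles, to fit without the trend, to block on replicate number, and to leave out each library. Python 3.11.15 with pandas 2.3.3, numpy 2.4.6 and matplotlib 3.10.9 made descriptions and plots.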

Additional observations from a re-analysis of the deposited data

Results flagged for a closer look

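The drug effect on ATP6V0E1 and ATP6V1B2 differed between the cell backgrounds when the difference itself was tested, and another difference, of ATP6V1C1, passed the threshold narrowly. The change of ATP6V0E1 was larger in LN229 than in U87 MG by 1.25 on the log2 scale, and larger in LN229-R than in U87-R by 1.48. The change of ATP6V1B2 was larger in LN229 than in U87 MG by 0.61, and its difference between LN229-R and U87-R was 0.68. The change of ATP6V1C1 was larger in LN229 than in U87 MG by 0.58 (adjusted p = 0.0457), and this call was lost without any 1 of 10 of the 12 libraries, and with equal totals, equal upper quartiles, no filter or no variance trend. Library kit and medium differed between the same backgrounds, and their part in these differences cannot be told apart from that of the cells.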

How the results depend on the processing

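In U87-R the count of members that rose under STM2457 was 5 in place of 3 with equal totals, and also 5 with the replicate block. In the LN229 resistance comparison it was 1 in place of 2 without a variance trend, 3 with equal totals, and 1 to 4 when single libraries were left out. The count of members with a larger change in LN229 than in U87 MG was 2 to 3, and in LN229-R than in U87-R also 2 to 3, when single libraries were left out. Leaving out single libraries gave 2 to 3 members in U87 MG, 2 to 3 in U87-R, 6 to 7 in LN229 and 4 to 5 in LN229-R under STM2457. Of 352 alternative values of called members, 24 lost the call and 0 changed sign. Of 1185 alternative values of members not called, 14 became called and 86 changed sign. In U87 MG, LN229 under STM2457 and the U87 resistance comparison, not all like-numbered libraries correlated above 0.1 (lowest correlations 0.0395, 0.0682 and 0.0189). Under STM2457 each library of these 2 lines was still most like the one of its own number. The same held for replicates 1 and 3, and not 2, of the U87 resistance comparison. Pairing is therefore possible there too, and the main fits leave it out. In these comparisons the replicate block added ATP6V0D1 in U87 MG (adjusted p = 0.0444) and changed no other call of a member. The number of genes called of all tested ran from 890 to 4137 in U87 MG, 884 to 4796 in U87-R, 6591 to 8928 in LN229 and 4364 to 8444 in LN229-R under STM2457. It ran from 315 to 1176 in the U87 and 534 to 3262 in the LN229 resistance comparison. For differences of drug effects it ran from 1864 to 3473 between LN229 and U87 MG and from 1450 to 3757 between LN229-R and U87-R, so the shares of all genes printed beside the members move with the setting. With 3 libraries per group and values already scaled, small changes of members may go uncalled.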

Other observations

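ATP6V0D2 is known as an osteoclast gene, so 11 osteoclast and macrophage genes were listed beside it. Under STM2457, 2 of 5 tested rose in U87 MG, 2 of 5 in U87-R, 3 of 4 in LN229 and 3 of 3 in LN229-R. Of all genes, 7.86%, 8.46%, 26.2% and 21.5% rose in the same order of lines. MMP9, a matrix protease, fell in U87-R (-2.02, adjusted p = 0.0397), where 6.2% of all genes fell. Its means there were low, 20.2 in DMSO and 4.44 in STM2457, and it passed the filter of 10 only through the DMSO libraries. ACP5, the tartrate-resistant acid phosphatase, rose by 2.27, 2.41, 3.48 and 4.69 in U87 MG and U87-R, then LN229 and LN229-R. CTSK, which encodes the protease cathepsin K, rose by 2.36, 1.95, 1.51 and 1.18. Between DMSO groups, CTSK was lower in libraries labelled LN229-R (-0.99, adjusted p = 0.000964), and CSF1R, a macrophage receptor, was lower in U87-R than in U87 MG (-0.79, adjusted p = 0.0313). NFATC1, a transcription factor of osteoclast differentiation, rose in LN229 (0.85) and LN229-R (0.68). In U87 MG and U87-R, where ATP6V0D2 was listed, NFATC1 had means of at most 1.33 under STM2457 or DMSO and was not tested. CSF1R (-0.38 and 0.22) and OSCAR (0.34 and 0.78) were tested under STM2457 in U87 MG and U87-R and were not called. The fusion genes DCSTAMP and OCSTAMP and the receptor gene CALCR had means of at most 12.2 normalized counts where listed.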
